A study of Mus musculus with 12 samples.

Results

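Glyceroneogenesis and the handling of pyruvate were described through 7 genes: Pck1, Pcx, Gpd1, Gpd2, Aqp7, Pdk2 and Pdk4. They were chosen by name, and for each the probe set annotated to that gene alone was taken, or, for Gpd1 with 2 such probe sets, the one with the higher mean over all arrays. All 7 were measured among the 22180 genes tested. Expression was measured as log2 intensity, normalized by the robust multi-array average (RMA), on 12 Affymetrix arrays of RNA from C57BL/6 mice. Whole, unfractionated adipose tissue (AT) and adipose progenitor preparations (AP) were each taken fresh from perigonadal visceral fat (VAT) and from inguinal subcutaneous fat (SAT). Each of the 4 groups had 3 biological replicates. The AP were what was left of the enzymatically released stromal cells of several mice after magnetic beads had taken out lineage-positive blood cells and CD31-positive endothelial cells, so they are a mixed preparation and not a sorted cell type. Every AP sample had been dissociated and no AT sample had. Sex, age, diet and the animals behind each replicate are not given in the sources used here, and the p-values then speak only for how these samples spread, which may be technical.

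Adipocytes store fatty acids as triglyceride, and each triglyceride needs a glycerol 3-phosphate backbone. When glucose is scarce, fat makes that backbone from pyruvate and its relatives by glyceroneogenesis: pyruvate carboxylase (Pcx) forms oxaloacetate, the cytosolic phosphoenolpyruvate carboxykinase (Pck1) turns it into phosphoenolpyruvate, and the cytosolic glycerol 3-phosphate dehydrogenase (Gpd1) makes glycerol 3-phosphate from dihydroxyacetone phosphate. The mitochondrial dehydrogenase Gpd2 runs that last step the other way and feeds electrons to the respiratory chain, and the channel Aqp7 lets glycerol leave the adipocyte after lipolysis. The pyruvate dehydrogenase kinases Pdk2 and Pdk4 switch off the enzyme complex that would burn pyruvate, and Pdk4 is known as the kinase induced by fasting and fatty acids.

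Promoter sequences were available from RefSeq (GRCm38.p6) for Pck1, Pcx, Gpd2, Aqp7, Pdk2 and Pdk4. The 250 bases before the start site are shown for Pck1 and Pcx, which fell together in AP, and for the kinases Pdk2 and Pdk4, whose values behaved differently. They are written 5′ to 3′ in the direction of the gene, with matches to any of 5 short motifs in capitals.
Pck1, chr2:173152823-173153072, plus strand: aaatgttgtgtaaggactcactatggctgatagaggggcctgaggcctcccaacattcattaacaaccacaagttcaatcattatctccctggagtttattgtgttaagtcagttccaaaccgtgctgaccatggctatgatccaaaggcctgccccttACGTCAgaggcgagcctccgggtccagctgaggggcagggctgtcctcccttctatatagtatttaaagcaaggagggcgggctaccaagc
Pcx, chr19:4510222-4510471, plus strand: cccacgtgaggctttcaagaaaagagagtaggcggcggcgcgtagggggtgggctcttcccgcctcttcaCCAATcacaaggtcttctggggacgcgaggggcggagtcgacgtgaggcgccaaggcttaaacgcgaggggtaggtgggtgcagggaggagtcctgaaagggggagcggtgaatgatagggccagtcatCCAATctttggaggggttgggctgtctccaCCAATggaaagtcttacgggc
Pdk2, chr11:95041372-95041621, minus strand: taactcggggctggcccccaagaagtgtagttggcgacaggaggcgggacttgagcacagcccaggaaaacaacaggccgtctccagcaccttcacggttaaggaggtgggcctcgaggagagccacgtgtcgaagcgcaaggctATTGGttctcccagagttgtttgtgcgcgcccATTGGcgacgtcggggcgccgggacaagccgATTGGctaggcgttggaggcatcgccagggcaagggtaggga
Pdk4, chr6:5496279-5496528, minus strand: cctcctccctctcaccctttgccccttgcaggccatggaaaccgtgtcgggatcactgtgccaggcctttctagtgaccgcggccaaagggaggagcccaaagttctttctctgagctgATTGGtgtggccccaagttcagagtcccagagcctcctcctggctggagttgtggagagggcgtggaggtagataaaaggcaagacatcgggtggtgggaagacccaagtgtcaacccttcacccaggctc
The motifs, searched on both strands, were ACGTCA (part of the cyclic AMP response element), AGGTCA (bound by nuclear receptors), AGAACA (bound by the glucocorticoid receptor), CCAAT and TATAAA. The window of Pck1 held ACGTCA at bases -91 to -86 from the start site, a motif found in 6.5% of 32851 RefSeq promoter windows of the same length. Cyclic AMP is a textbook inducer of Pck1, although a match is only a description. Pcx and Pdk2 have 2 entries each, of which the other held none of the motifs. The windows shown of Pcx and Pdk2 each held CCAAT 3 times, in Pcx from -180, -51 and -21 and in Pdk2 on the opposite strand from -105, -73 and -42, and that of Pdk4 held it once, from -131. CCAAT occurred in 33.8% of all windows. None of these 4 windows held AGGTCA, which 14% of all windows held and which both Aqp7 windows held on the opposite strand.

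The arrays had medians of 4.49 to 4.67, and arrays within a group correlated across genes at 0.9869 to 0.9936. The 8 measured adipocyte markers had a mean log2 intensity of 6.28 to 7.06 on the AP arrays and of 11.42 to 11.81 on the AT arrays, and all 8 were called lower in AP. The mean of 8 macrophage markers was also lower in AP, at 5.18 to 5.47 against 8.22 to 9.0, as was that of 8 endothelial markers, at 5.74 to 6.01 against 7.18 to 7.73. In bulk RNA, fewer cells of a type and less RNA per cell cannot be told apart. The 9 progenitor markers were at 10.85 to 11.45 in AP and 9.02 to 10.23 in AT. The mean of 7 pericyte and smooth muscle markers was 9.42 to 9.50 in AP from SAT and 9.83 to 9.97 in AP from VAT, against 7.06 to 7.5 in AT, and its part in the differences between groups was not tested. The AT arrays from SAT differed among themselves in brown and beige adipocyte markers. The mean of these 7 markers was 8.83, 7.39 and 6.11 in replicates 1, 2 and 3, against 4.65 to 5.28 in AT from VAT and 4.23 to 4.53 in AP. Several results that rest on AT from SAT, though not all, are therefore also given without its replicate 1.

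Pck1, the rate-setting enzyme of glyceroneogenesis, was the gene of the group that stood highest in tissue against progenitors. In AP its log2 intensity was 5.57, 5.35 and 5.53 in SAT and 5.61, 5.77 and 5.22 in VAT. In AT it was 11.82, 11.62 and 11.49 in SAT and 11.36, 10.84 and 10.76 in VAT. The preparations lay far apart, and AT from SAT lay wholly above AT from VAT. The log2 difference of AP minus AT was -6.16 in SAT (SE 0.167, a 71.5-fold fall) and -5.45 in VAT (SE 0.167, 43.8-fold), with limma adjusted p = 7.92e-13 and 2.55e-12. In SAT this was the 4th largest fall of the 22180 genes and in VAT the 12th largest.

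Pcx, which supplies the oxaloacetate that Pck1 uses, also fell in both depots. It read 5.84, 5.58 and 5.86 in AP from SAT and 5.72, 5.54 and 6.15 in AP from VAT. It read 10.80, 10.82 and 10.57 in AT from SAT and 11.11, 10.79 and 10.79 in AT from VAT. Unlike in Pck1, the depots overlapped in AT. Pcx fell in AP, with a difference of -4.97 in SAT (SE 0.152, 31.3-fold) and -5.09 in VAT (SE 0.152, 34.1-fold), with limma adjusted p = 2.61e-12 and 2.31e-12. Within each array, the log2 difference between the Pck1 and Pcx intensities changed by -0.78 from AT to AP (exact permutation test within depots, 2-sided p = 0.02, adjusted p = 0.02 over 3 pairs). The change was mostly in SAT, where the within-array difference was 0.80 to 1.02 in AT and -0.33 to -0.23 in AP. In VAT it was -0.03 to 0.25 in AT and -0.93 to 0.23 in AP, which overlapped.

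**Figure D1:**
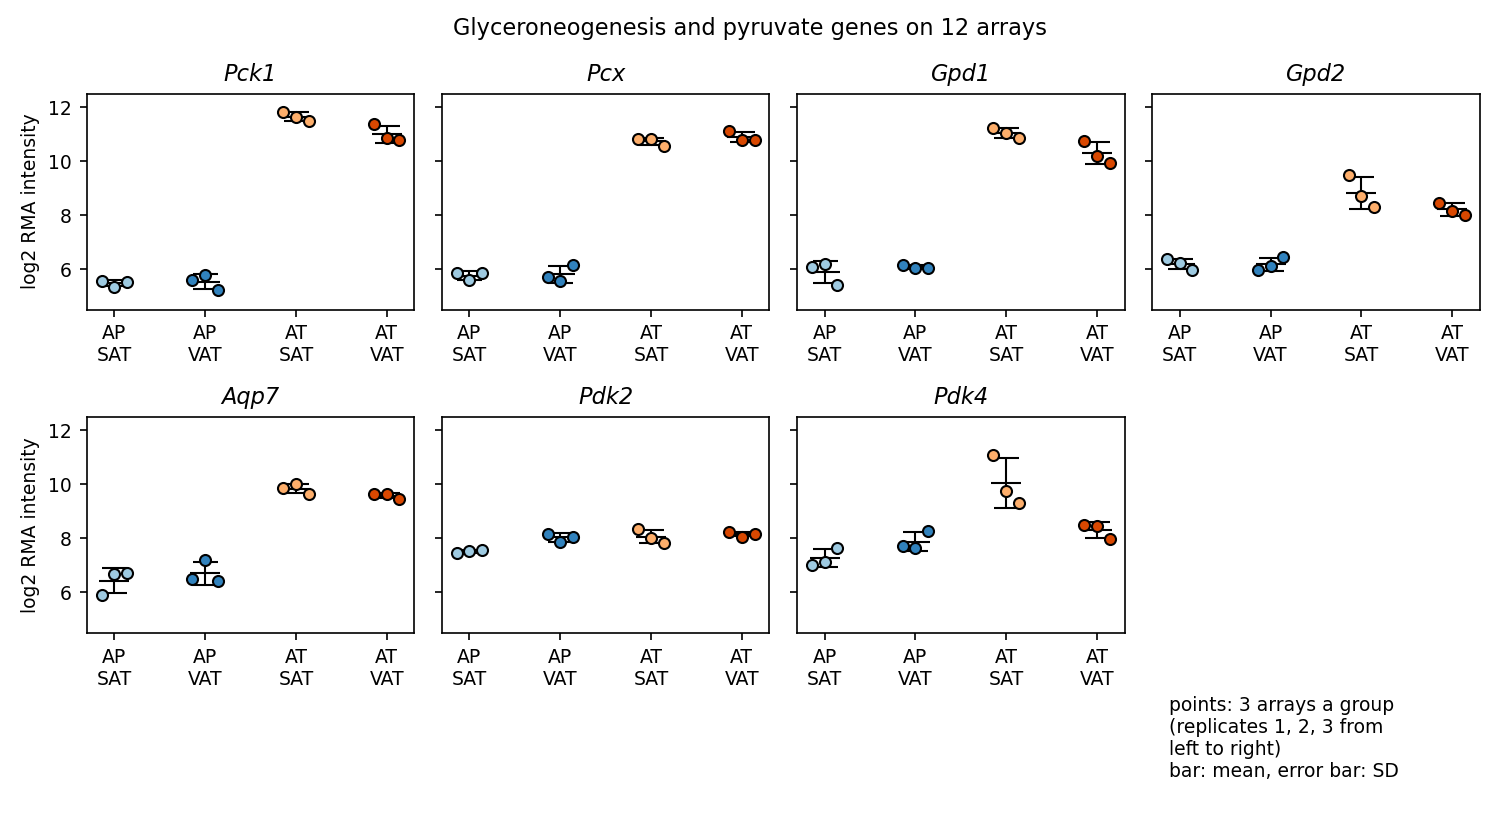
Log2 RMA intensity of the 7 genes on the 12 arrays, by preparation (AP, AT) and depot (SAT, VAT), with the mean and SD of 3 arrays a group. Pck1, Pcx and Gpd1 sit at 5.22 to 6.19 in AP and at 9.94 to 11.82 in AT, whereas Pdk2 spans 7.47 to 8.34 over all arrays and Pdk4 reaches 9.32 to 11.08 in AT from SAT alone.

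Gpd1, which makes the glycerol 3-phosphate itself, followed the same order. In AP it was at 6.06, 6.19 and 5.42 in SAT and at 6.15, 6.05 and 6.03 in VAT. In AT it was at 11.21, 11.05 and 10.85 in SAT and at 10.73, 10.20 and 9.94 in VAT. Gpd1 fell in AP, with a difference of -5.15 in SAT (SE 0.201, 35.4-fold) and -4.21 in VAT (SE 0.201, 18.6-fold), with limma adjusted p = 3.95e-11 and 3.72e-10. The other Gpd1 probe set was dimmer, at 4.93 to 5.78 in AP and 6.64 to 7.53 in AT, and its differences were -2.05 in SAT and -1.52 in VAT (SE 0.183 each). Both probe sets were thus lower in AP, by different amounts.

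Gpd2, the mitochondrial partner of Gpd1, changed less than the brighter Gpd1 probe set and more than the dimmer. Its AP intensities were 6.37, 6.22 and 5.98 in SAT and 5.96, 6.10 and 6.45 in VAT. Its AT intensities were 9.47, 8.70 and 8.30 in SAT and 8.46, 8.16 and 8.01 in VAT, where the depots overlapped. Gpd2 fell in AP, with a difference of -2.63 in SAT (SE 0.230, 6.21-fold) and -2.04 in VAT (SE 0.230, 4.11-fold), with limma adjusted p = 2.74e-07 and 4.43e-06. Within each array, the log2 difference between the Gpd1 and Gpd2 intensities changed by -2.34 from AT to AP (exact permutation test, 2-sided p = 0.005, the smallest p this design allows; adjusted p = 0.015 over the 3 pairs). With the mean of both Gpd1 probe sets in place of the brighter, the change was -0.90 (exact p = 0.005).

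Aqp7, the glycerol channel, lay between these. It read 5.90, 6.67 and 6.73 in AP from SAT, 6.49, 7.21 and 6.44 in AP from VAT, 9.87, 10 and 9.66 in AT from SAT and 9.65, 9.63 and 9.47 in AT from VAT. Every AT array was above every AP array. Aqp7 fell in AP, with a difference of -3.41 in SAT (SE 0.216, 10.6-fold) and -2.87 in VAT (SE 0.216, 7.31-fold), with limma adjusted p = 8.68e-09 and 5.84e-08.

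The pyruvate dehydrogenase kinases Pdk2 and Pdk4, unlike the other genes described, were not called lower in AP in VAT. In SAT they differed from each other, as Pdk4 (-2.79, SE 0.333) fell about as much as Gpd2 (-2.63, SE 0.230) and Pdk2 fell less. Without replicate 1 of AT from SAT, Pdk4 was at -2.28 and Gpd2 at -2.31. Pdk2 was at 7.47, 7.54 and 7.56 in AP from SAT, at 8.17, 7.87 and 8.07 in AP from VAT, at 8.34, 8.03 and 7.84 in AT from SAT and at 8.22, 8.07 and 8.17 in AT from VAT. Only AP from SAT lay below all other arrays. Pdk2 fell in AP from SAT, with a difference of -0.55 (SE 0.126, 1.46-fold, limma adjusted p = 0.00288), or -0.41 without replicate 1 of AT from SAT (adjusted p = 0.0197). In VAT its difference was -0.12 (95% interval -0.38 to 0.15, adjusted p = 0.528), and 0.25 when arrays were scaled to housekeeping genes (adjusted p = 0.111).

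Pdk4 was called lower in AP in SAT and was not called in VAT. It read 7.02, 7.12 and 7.64 in AP from SAT and 7.72, 7.66 and 8.27 in AP from VAT. In AT it read 11.08, 9.76 and 9.32 in SAT and 8.49, 8.45 and 7.96 in VAT. AT from SAT lay above all other arrays, with a wide spread of its own, and AP and AT from VAT overlapped. The difference of AP minus AT was -2.79 in SAT (SE 0.333, 6.93-fold, limma adjusted p = 6.98e-06). Leaving out replicate 1 of AT from SAT gave -2.28 (adjusted p = 2.76e-06). In VAT the difference was -0.42 (95% interval -1.13 to 0.29, adjusted p = 0.380). Within each array, the log2 difference between the Pdk4 and Pdk2 intensities changed by -1.27 from AT to AP (exact permutation test, 2-sided p = 0.015, adjusted p = 0.02 over the 3 pairs). That difference had a mean of -0.26 in AP and 1.98 in AT in SAT, and of -0.15 and 0.15 in VAT. The change was mostly in SAT, since in VAT the arrays overlapped, at -0.45 to 0.20 in AP and -0.21 to 0.38 in AT.

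In counts, all 7 genes were called lower in AP in SAT, at an adjusted p under 0.05 over all genes, where 16.3% of all genes were called lower. In VAT 5 of the 7 were called lower, against 16.8% of all genes. Over both depots all 7 were called lower, against 20.5% of all genes, with a median log2 difference of -3.14 beside 0.03 for all genes. In 5 of the 7, all but the kinases, every AP array lay below every AT array, as in 13% of all genes. Without replicate 1 of AT from SAT the counts were 7, 5 and 7, and without its replicates 1 and 2 together they were 6, 5 and 6, Pdk2 being lost. Shifting each array to an equal median of 14 housekeeping genes left the median difference of all genes at 0.29. It turned the split of all called genes from 4890 higher and 4540 lower into 13736 and 2730. Pdk2 was then at -0.07 (limma adjusted p = 0.490) over both depots. The other 6 genes were still called lower.

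**Figure D2:**
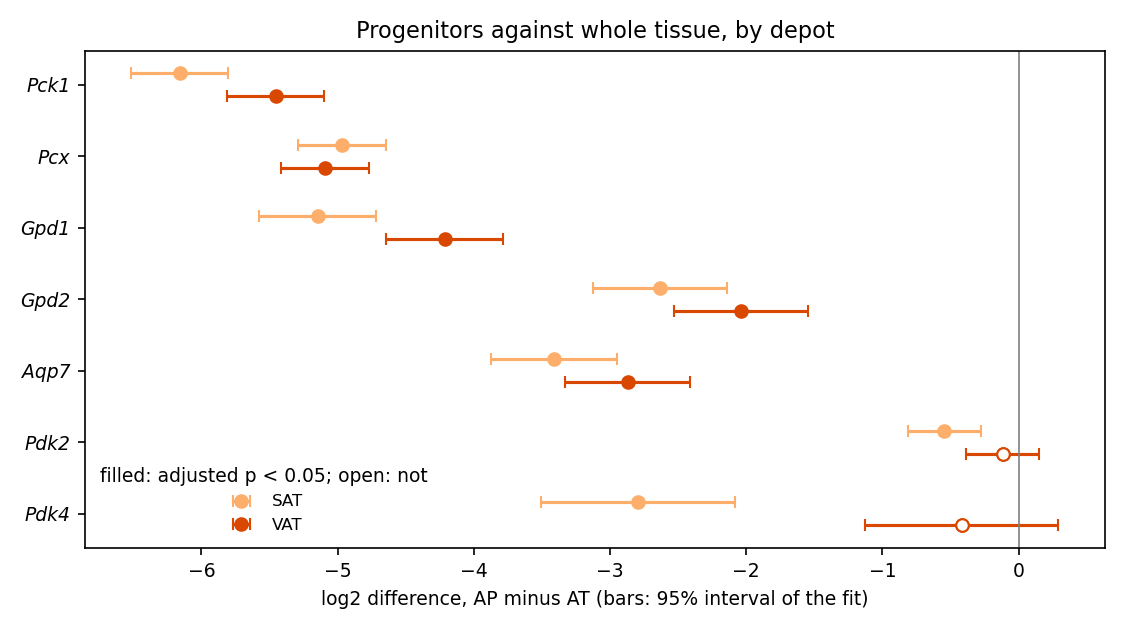
Log2 difference of AP minus AT for the 7 genes in SAT and VAT, with 95% intervals from the limma fit over all genes; filled points are called and open points are not. Pck1, Pcx and Gpd1 lie at -4.21 to -6.16, and the open points are Pdk2 and Pdk4 in VAT.

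The depots were then compared within each preparation. In AP, 5 of the 7 genes differed by 0.28 or less between VAT and SAT and were not called: Pck1 by 0.05 (95% interval -0.31 to 0.41), Pcx by 0.04 (-0.28 to 0.37), Gpd2 by -0.02 (-0.51 to 0.47), Gpd1 by 0.19 (-0.24 to 0.62) and Aqp7 by 0.28 (-0.18 to 0.74). Pdk2 was called higher in VAT, by 0.51 (SE 0.126, 1.43-fold, limma adjusted p = 0.0230). Of the 7 pericyte and smooth muscle markers, 4 were also called higher in VAT in AP. Pdk2 was 1 of 7, where 3.03% of all genes were called higher, and adjusted p was 0.0601 to 0.113 when any of replicates 1, 2 or 3 of AP from SAT, or 1 or 3 of AP from VAT, was left out. Pdk4 had a difference of 0.62 (SE 0.333, adjusted p = 0.418) with no overlap between the depots, as 9.87% of all genes had in that direction.

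In whole tissue, 3 of the 7 genes were lower in VAT, where 1.75% of all genes were called lower. Pdk4 fell by 1.75 (SE 0.333, 3.37-fold, limma adjusted p = 0.00522), the 20th largest fall of 22180 genes. Pck1 fell by 0.66 (SE 0.167, 1.58-fold, adjusted p = 0.0341) and Gpd1 fell by 0.75 (SE 0.201, 1.68-fold, adjusted p = 0.0473). Gpd2 was at -0.61 (SE 0.230, adjusted p = 0.181) and Aqp7 at -0.26 (SE 0.216, adjusted p = 0.640). In 4 of the 7, Pck1, Gpd1, Aqp7 and Pdk4, every VAT array lay below every SAT array, as in 7.26% of all genes. Pcx was at 0.17 (95% interval -0.16 to 0.49) and Pdk2 at 0.08 (-0.18 to 0.35), neither called. The order of the groups was thus AT from SAT, AT from VAT and then the AP groups for Pck1, Gpd1 and Pdk4, with the AP groups not called different from each other, and for Pdk4 in VAT AP not called different from AT.

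The calls of Pck1 and Gpd1 were close to the threshold. The dimmer Gpd1 probe set had a difference of -0.48 (adjusted p = 0.19), and the mean of both probe sets -0.62 (adjusted p = 0.0506). Without replicate 1 of AT from SAT their differences were -0.57 (adjusted p = 0.151) and -0.66 (adjusted p = 0.181), and that of Pdk4 was -1.24 (adjusted p = 0.00722), so that 1 of the 7 was called. Without its replicates 1 and 2 none was, and Pdk4 was at -1.02 (limma adjusted p = 0.0898). Leaving out replicate 2 of AT from SAT or replicate 2 or 3 of AT from VAT also ended the calls of Pck1 (adjusted p 0.0728 to 0.142) and Gpd1 (0.104 to 0.188). The call of Gpd1 also ended without replicate 1 of AP from SAT or any AP array from VAT (0.0589 to 0.0679). The difference of Gpd2 was -0.29 without replicate 1 of AT from SAT (adjusted p = 0.568) and -0.87 without its replicate 3 (adjusted p = 0.0287), so Gpd2 was called in that setting alone.

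The depot difference itself depended on the preparation for Pdk4. Subtracting its depot difference in AT from its depot difference in AP gave 2.38 (95% interval 1.37 to 3.38, limma adjusted p = 0.0154), the 7th largest positive value of all genes, where 0.987% of all genes were called higher. It was 1.86 without replicate 1 of AT from SAT (adjusted p = 0.00753) and 1.64 without its replicates 1 and 2 (adjusted p = 0.0440). With a trended and robust estimate of the spread the adjusted p was 0.0717. For the other 6 genes this difference of differences was not called: Gpd1 was at 0.93, Pck1 at 0.71, Gpd2 at 0.59, Aqp7 at 0.54, Pdk2 at 0.43 and Pcx at -0.12, with adjusted p of 0.121 to 0.875. Gpd1 was called with the fixed replicate block (0.93, adjusted p = 0.0422), with the housekeeping shift (1.15, adjusted p = 0.0364) and when replicate 1 of AT from VAT was left out (1.15, adjusted p = 0.0423). Gpd2 was at 0.27 without replicate 1 of AT from SAT, and Aqp7 at 0.27 without replicate 1 of AP from SAT and 0.29 without replicate 2 of AP from VAT.

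**Figure D3:**
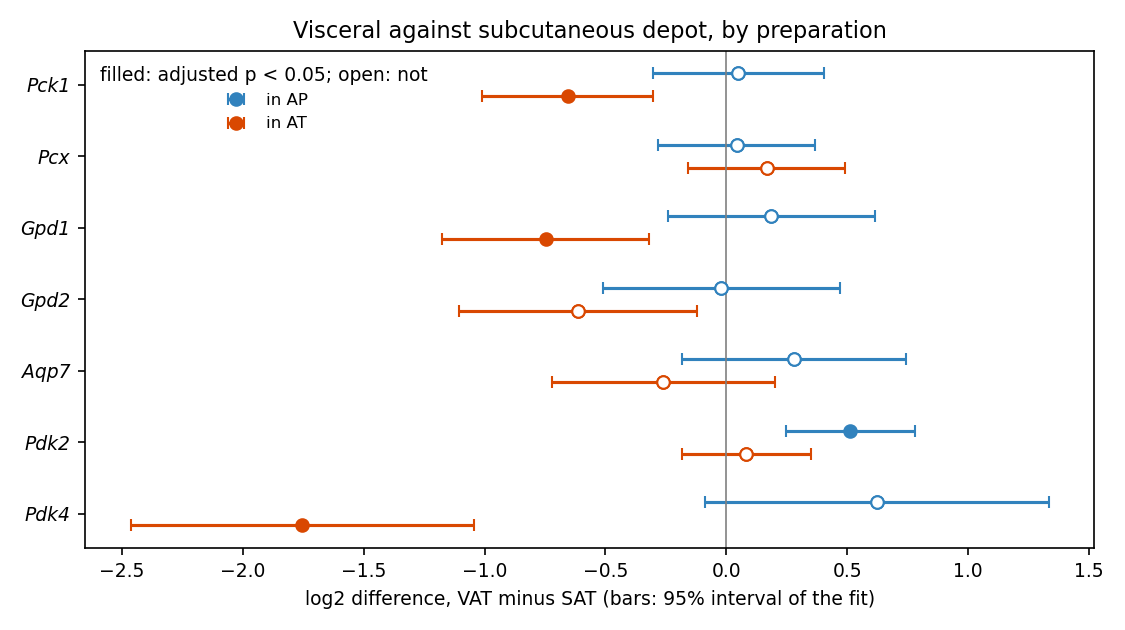
Log2 difference of VAT minus SAT for the 7 genes in AP and in AT, with 95% intervals from the limma fit; filled points are called and open points are not. In AT the points of Pdk4, Gpd1 and Pck1 are filled on the left (-1.75, -0.75 and -0.66), and in AP the point of Pdk2 alone is filled, on the right (0.51).

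Brown and beige adipocyte markers moved with some of these genes among the AT arrays. Ucp1, the uncoupling protein that makes heat in brown fat, was at 10.76, 8.62 and 4.55 in replicates 1, 2 and 3 of AT from SAT and at 5.69, 4.17 and 4.32 in AT from VAT. Cidea, a lipid droplet protein of brown fat, was at 10.64, 9.73 and 8.71 and at 6.16, 4.57 and 4.76. All 7 of these markers were highest on replicate 1 of AT from SAT. That array also had the highest value of all 12 for Pdk4 (11.08), Gpd2 (9.47), Pck1 (11.82), Gpd1 (11.21) and Pdk2 (8.34), but not for Pcx or Aqp7. The 8 adipocyte markers differed little across these arrays, at 11.42 to 11.54 in AT from SAT and 11.74 to 11.81 in AT from VAT. In AT from VAT, 3 of the 7 brown and beige markers averaged below 4.10, a level taken here as near background because 40% of probe sets lie under it, and in AT from SAT none did. The 8 skeletal muscle markers had means of 5.19 to 5.59 in AT from SAT and 5.46 to 5.6 in AT from VAT. The part of brown and beige adipocytes in the depot differences was not tested. Mesothelial markers, at 7.87 to 8.73 in both preparations from VAT and 4.98 to 5.34 in those from SAT, moved with the depot as well, and their part was not tested either.

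**Figure D4:**
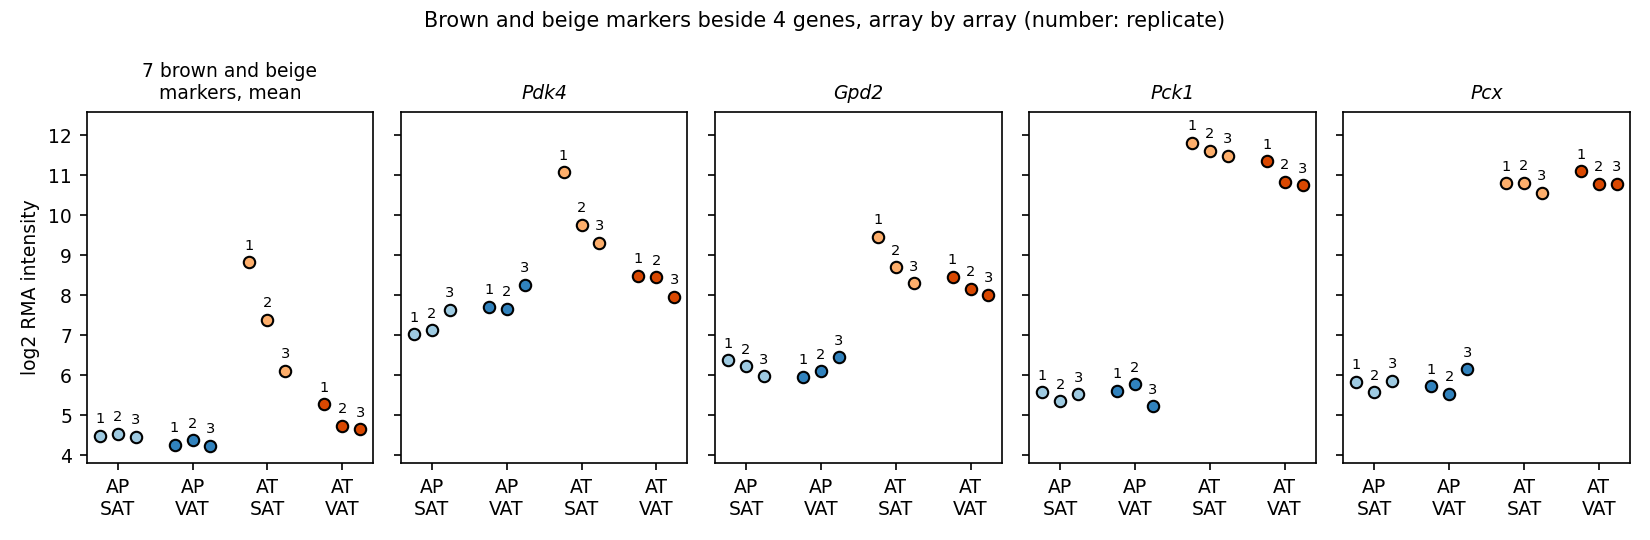
Log2 RMA intensity, array by array, of the mean of 7 brown and beige markers and of Pdk4, Gpd2, Pck1 and Pcx, with the replicate number above each point. In AT from SAT the marker mean is 8.83, 7.39 and 6.11 in replicates 1, 2 and 3 and Pdk4 is 11.08, 9.76 and 9.32, whereas Pcx stays at 10.57 to 10.82.

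The rest of the pathway was followed through 4 lists of genes. Among genes of glycerol and glycerol 3-phosphate handling, 9 of 15 measured fell in AP over both depots and 1 rose (median -0.85). The falls were led by enzymes that build triglyceride or release glycerol from it: the acyltransferases Agpat2 (-3.60, SE 0.088) and Gpat3 (-3.24, SE 0.093) and the monoglyceride lipase Mgll (-3.19, SE 0.094). The gene that rose was Pck2, the mitochondrial form of Pck1, by 1.28 (SE 0.095, limma adjusted p = 1.91e-08), at 7.88 ± 0.04 (SD, n = 3) and 7.96 ± 0.29 in AP from SAT and VAT against 6.51 ± 0.09 and 6.76 ± 0.16 in AT. The cytosolic and mitochondrial forms thus moved in opposite directions. Gpd1l, a relative of Gpd1, was at -0.09, and the other glycerol channels Aqp3 and Aqp9 were at 0.11 and 0.01, none of them called. Aqp3 and Aqp9 were dim in every group, with means of 4.53 to 4.98 beside array medians of 4.49 to 4.67. Over all genes 20.5% were called lower and 22% higher. With arrays shifted to housekeeping genes the list had 8 lower and 5 higher, where 2730 of 22180 genes were called lower and 13736 higher. Between depots, Mgll was lower in VAT in AP (-1.05, SE 0.132), and in AT the channel Aqp11 (-0.65, SE 0.142) and Agpat2 (-0.59, SE 0.124) were lower in VAT, neither called without replicate 1 of AT from SAT (adjusted p = 0.0699 and 0.0622).

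In the pyruvate dehydrogenase complex and its regulators, 8 of 10 fell in AP and 1 rose (median -1.58). Over all genes 20.5% were called lower and 22% higher. All 5 subunits measured were among the falls, led by Pdhb (-2.90, SE 0.109), Dld (-2.37, SE 0.103) and Dlat (-1.86, SE 0.121). The kinase Pdk1 fell by 1.42 (SE 0.127), and Pdk3 was at -0.10 and not called. The phosphatase Pdp1, which switches the complex back on, rose by 0.63 (SE 0.076, limma adjusted p = 5.10e-06). In AP it was also higher in VAT than in SAT, by 0.52 (SE 0.107). In AT, Pdhb was lower in VAT (-0.89, SE 0.153) and Pdk3 higher by 0.68 (SE 0.112).

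Of 24 genes of pyruvate formation, transport and cycling, 17 fell and 4 rose in AP (median -0.86), where 20.5% of all genes were called lower and 22% higher. With arrays shifted to housekeeping genes 14 fell and 7 rose, where 2730 of 22180 genes were called lower and 13736 higher. The malic enzyme Me1, which makes pyruvate and NADPH, fell (-3.85, SE 0.115), as did the alanine transaminase Gpt2 (-3.01, SE 0.102) and the mitochondrial pyruvate carrier Mpc1 (-2.90, SE 0.111). The aspartate transaminases Got1 (1.29, SE 0.097) and Got2 (1.12, SE 0.085) and the aspartate and glutamate carrier Slc25a12 (1.27, SE 0.103) rose. Between depots, Gpt2 was higher in VAT in both AP (0.61, SE 0.145) and AT (0.82, SE 0.145), and Ldhb, a lactate dehydrogenase subunit, was higher in VAT in AP (0.70, SE 0.162). In AT, Got2 was higher in VAT (0.50, SE 0.120), though it was not called with the housekeeping shift (adjusted p = 0.0935). There the mitochondrial carriers Slc25a10 (-0.65, SE 0.158) and Slc25a1 (-0.60, SE 0.136) and Got1 (-0.52, SE 0.137) were lower in VAT, but none of these falls was called without replicate 1 of AT from SAT (adjusted p = 0.0742, 0.0910 and 0.195).

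Of 17 regulators known to act on glyceroneogenic genes, 9 were lower and 4 higher in AP, where 20.5% of all genes were called lower and 22% higher. With the housekeeping shift 7 were lower and 7 higher, where 2730 of 22180 genes were called lower and 13736 higher. The adipocyte factors Cebpa (-3.31, SE 0.091) and Pparg (-2.17, SE 0.117) and the coactivator Ppargc1a (-1.97, SE 0.232) fell. The immediate early nuclear receptor Nr4a3 (4.05, SE 0.185), the orphan receptor Nr2f2 (1.32, SE 0.089) and Cebpb (1.14, SE 0.090) rose, beside 12 immediate early and dissociation stress genes whose mean was 10.78 to 10.98 in AP and 5.88 to 6.28 in AT; the part of handling in these rises was not tested. Pparg was lower in AP from VAT than from SAT (-0.74, SE 0.165, limma adjusted p = 0.0130). Pck1 and Aqp7, both known PPAR-gamma targets, were at 0.05 and 0.28 in that comparison, neither called. The means of Pck1 in AP were 5.48 in SAT and 5.53 in VAT, against 11.64 and 10.99 in AT. The part of Pparg in these values was not tested. In AT, Ppara (-0.80, SE 0.203) and Cebpb (-0.56, SE 0.127) were lower in VAT, and Ppard was higher (0.38, SE 0.101). None of these 3 was called without replicate 1 of AT from SAT (adjusted p = 0.157, 0.0925 and 0.161), and Ppard was not called under the other normalizations either (0.0800 to 0.202).

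**Figure D5:**
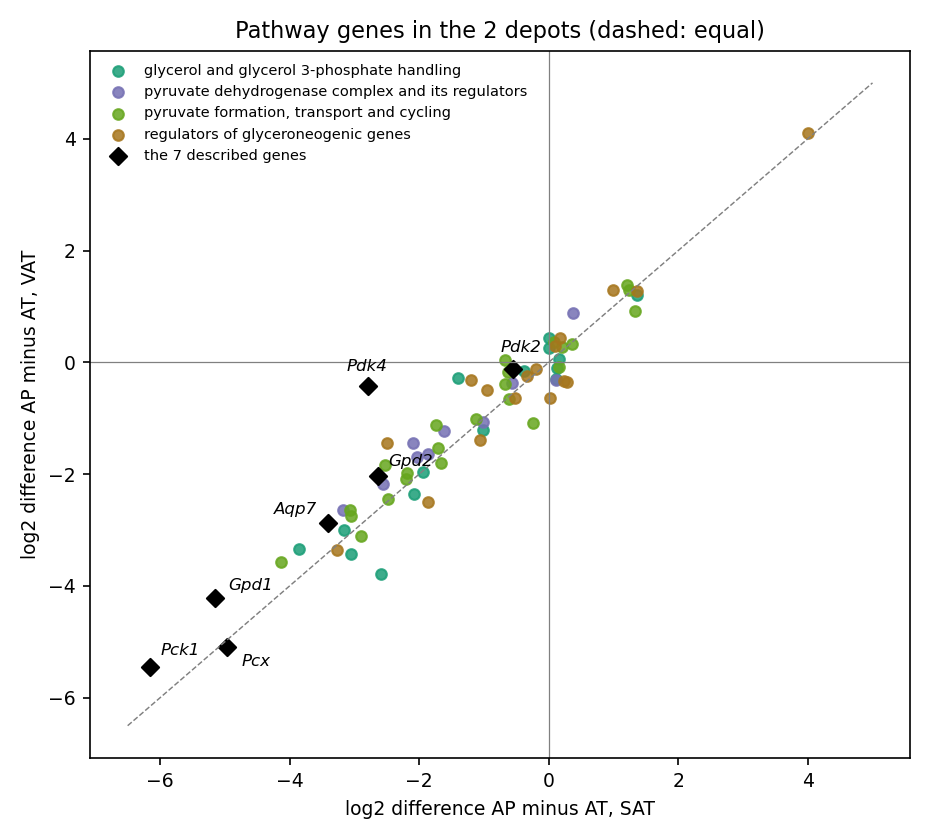
Log2 difference of AP minus AT in SAT (horizontal) and in VAT (vertical) for the 7 genes (diamonds) and the measured genes of 4 pathway lists (circles); the dashed line marks equal differences. Pck1 is the lowest diamond on both axes (-6.16 and -5.45), and Pdk4 lies farthest above the line (-2.79 and -0.42).

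The genes most like each of the 7 were found by the distance between the 4 group means, each centred on the gene's own mean, among 18820 genes. Nearest to Pck1 were B3galt2 (distance 0.403), the lipogenic regulator Thrsp (0.563) and the adipocyte galectin Lgals12 (0.623). Nearest to Gpd1 were the FGF21 co-receptor Klb (0.285), the lysosomal protease Ctss (0.384) and Pnpla3 (0.433). Nearest to Gpd2 were Dld (0.113), the leukocyte antigen Ptprc (0.119) and Ms4a6d (0.123), and nearest to Aqp7 were Plbd1 (0.109), the fatty acid transporter Slc27a1 (0.163) and the class II antigen H2-Ab1 (0.19). Nearest to Pcx were F13a1 (0.286), the phosphodiesterase Pde3b (0.316) and the macrophage lysozyme Lyz2 (0.320). The neighbours thus held adipocyte genes and leukocyte genes, both of which were lower in AP. Nearest to Pdk4 were Gbp4 (0.319), Ms4a14 (0.499) and the cytochrome oxidase subunit Cox7a1 (0.516), 1 of the 7 brown and beige markers. Gbp4 and Ms4a14, like Klb and Ms4a6d, were under 4.10 in AP. In AT from VAT Gbp4 (3.89) and Ms4a14 (3.52) were under it too, so their likeness to Pdk4 rests largely on AT from SAT. Pdk2 had close neighbours in Arhgap45 (0.062), Fam229b (0.067) and Kank1 (0.077). Among the 7 genes themselves, Gpd1 and Pcx were closest (0.742) and Pck1 and Pdk2 farthest apart (5.51).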

How the data were processed

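RNA of 12 samples was hybridised to Affymetrix arrays. The authors deposited an RMA value for every probe set, a log2 intensity from Affymetrix Expression Console 1.3.0.187 per the submitters' processing notes; base 2 was taken from the method and the range, 1.69 to 13.48. The annotation library, level of summary and genome build are not given in the sources used here. RMA's quantile step makes differences relative to the other genes of an array. Of 41345 probe sets, 23521 had 1 gene, 1814 several and 16010 none in the platform annotation. The brightest probe set of each gene gave 22180 genes, with no filter.

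Group means of all 12 arrays entered 1 linear model (limma 3.58.1, R 4.3.3, 8 residual and 6.84 prior degrees of freedom), tested 2-sided with Benjamini-Hochberg adjustment over all genes; called means an adjusted p below 0.05. Intervals are 95% and not adjusted. SE is the moderated fit's. The number of arrays limits the precision. Gene pairs were compared within arrays by exact permutation of the preparations within depots (400 arrangements). Named list genes are the up to 3 largest called rises and falls per list and contrast; Gpd1l, Aqp3, Aqp9, Pdk1, Pdk3 and the marker values were added after their values were seen. The members and lists were chosen with earlier results of these data known. Likeness left out predicted genes and small RNA. The main fit did not treat samples of the same replicate number as pairs, and whether they are pairs could not be settled. The fit was tested on simulated data: for VAT minus SAT in AP among 22180 genes, 18 of 50 were called at a true difference of 0.5 and 46 of 50 at 1. For the interaction, 6 of 50 were called at 0.5 and 32 of 50 at 1, so an interaction that was not called may still be present. Figures used Python 3.11.15 and matplotlib 3.10.9. Alternatives were other normalizations, a filter, the mean of probe sets, a replicate block, other variance models, subsets and leaving out arrays.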

Additional observations from a re-analysis of the deposited data

Results flagged for a closer look

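Among the 46 genes described or named from the lists, 7 had a depot difference (VAT minus SAT) that differed between AP and AT by the interaction term of the limma fit, adjusted over all genes. Over all 22180 genes, 219 interactions were called positive and 257 negative. Some of the 46 were named because their depot difference was called in AP or in AT. Such a choice favours an interaction, so the count of 7 is a description and not a test. Pdk4 had an interaction of 2.38 (SE 0.470, adjusted p = 0.0154), from 0.62 in AP and -1.75 in AT. The water and glycerol channel Aqp11 had 1.12 (SE 0.200, adjusted p = 0.00865), from 0.47 and -0.65, and the kinase Sgk1 0.87 (SE 0.161, adjusted p = 0.0101), from 0.67 and -0.20. Mgll, which releases the last fatty acid from glycerol, had -1.20 (SE 0.19, adjusted p = 0.00339), from -1.05 and 0.15. The metallothionein Mt2 had -1.54 (SE 0.200, adjusted p = 0.000850), from -0.21 and 1.33, Zbtb16 -1.18 (SE 0.263, adjusted p = 0.0306), from -0.38 and 0.79, and the nuclear receptor Ppard -0.58 (SE 0.142, adjusted p = 0.0468), from -0.21 and 0.38. The calls of Zbtb16 and Ppard were the least firm: Zbtb16 was called in 9 of 21 alternatives (adjusted p 0.00701 to 0.0953) and Ppard in 6 of 21 (0.0219 to 0.198), and neither without replicate 1 of AT from SAT (0.0612 and 0.118). Pdk4 was called in 20 of 21, and Mgll, Aqp11, Mt2 and Sgk1 in 21 of 21, although Aqp11 was not without replicates 1 and 2 of AT from SAT (adjusted p = 0.0811).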

How the results depend on the processing

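The 5 genes Pck1, Pcx, Gpd1, Gpd2 and Aqp7 were called lower in AP in SAT, in VAT and over both depots under every alternative listed in the methods. The number of the 7 genes called lower in AT from VAT was 3 as reported, 1 under quantile normalization, the random replicate block, array weights and the fit of the compared groups only, 0 without AT_SAT replicates 1 and 2 (a setting added after the data were seen, in which the lone SAT array is assumed to vary like the others), and 1 to 4 when single arrays were left out. The number called higher in AP from VAT was 0 to 1 when single arrays were left out. The number with a called positive interaction was 1 as reported, 2 with the housekeeping shift and with the fixed replicate block (Pdk4 and Gpd1), 0 with trend and robust, and 1 to 2 when single arrays were left out. Whether replicate numbers pair the samples could not be settled. Same-numbered arrays deviated together with correlations of -0.28 to 0.159, and not every array correlated best with its own number. With 3 arrays a group, such correlations cannot exclude pairing. In AT, Pck1, Gpd1, Gpd2, Pdk4 and the brown and beige marker mean fell from replicate 1 to 2 to 3 in both depots, whereas Pcx, Aqp7 and Pdk2 did not. With preparations permuted only within pairs of that number, a replicate block, the within-array changes of -1.27 (Pdk4 minus Pdk2), -2.34 (Gpd1 minus Gpd2) and -0.78 (Pck1 minus Pcx) had adjusted exact p = 0.0625, in a design whose smallest exact p is 0.0312. Leaving out single arrays gave -1.40 to -1.08 for Pdk4 minus Pdk2, -2.46 to -2.26 for Gpd1 minus Gpd2 and -0.90 to -0.61 for Pck1 minus Pcx. With the housekeeping shift, 13537 genes were called higher and 1858 lower in AP from VAT, against 3507 and 3732, and 5807 were called higher in SAT, against 3571. Between depots that shift gave 370 lower in AP, against 577, 373 higher and 628 lower in AT, against 621 and 388, and 592 positive and 125 negative interactions, against 219 and 257. The compared groups alone gave 398 higher and 203 lower in AT. Leaving out single arrays lowered counts over all genes past 1.5 times to 344 to 357 lower in AP, 412 higher and 244 to 248 lower in AT, and 130 positive and 131 to 159 negative interactions, and without AT_SAT replicates 1 and 2 they were 2253 higher in AP than AT in SAT, 218 higher in AT from VAT, and 126 positive and 69 negative interactions. No call of a single gene reversed. The cause of these changes was not tested. The 3 arrays of each group limit what can be seen of differences under 1 between depots.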

Other observations

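Targets of the receptors that act on Pck1 and Pdk4 did not share 1 direction. Of 10 glucocorticoid receptor targets, 8 rose in AP over both depots (median 1.04), led by Dusp1 (2.91, SE 0.117), Mt2 (1.97, SE 0.100) and Per1 (1.68, SE 0.131); Dusp1 and Per1 are also immediate early genes. Pdk4 and Pck1, on which that receptor is also known to act, fell in the same comparison. Which way the receptor acted on any of these genes, and its part in their differences, was not tested. Of 8 measured PPAR targets of lipid use, 5 fell and 1 rose (median -0.51): the uncoupling protein Ucp3 (-2.31, SE 0.158), the peroxisomal enzyme Ehhadh (-2.26, SE 0.131) and the droplet protein Plin5 (-1.02, SE 0.123) fell, and the carnitine transferase Cpt1a rose (0.64, SE 0.102). With arrays shifted to housekeeping genes the counts were 9 higher for the first list, and 4 lower and 2 higher for the other. Over all 22180 genes 22% were called higher and 20.5% lower, and 13736 were called higher and 2730 lower with that shift.

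In whole tissue, the uncoupling protein Ucp3 was lower in VAT (-1.09, SE 0.223, limma adjusted p = 0.00915), as was the droplet protein Plin2 (-0.72, SE 0.169, adjusted p = 0.0228). Leaving out AT_SAT replicate 1 ended the call of Plin2 (limma adjusted p = 0.119) and left Ucp3 at -0.82 (adjusted p = 0.0429). Over the same arrays Mt2 (1.33, SE 0.141), Zbtb16 (0.79, SE 0.186) and Mt1 (0.51, SE 0.114) were higher in VAT; Zbtb16 and Mt1 were not called with the housekeeping shift (adjusted p = 0.0508 and 0.0748), and Zbtb16 not without replicate 1 of AT from SAT (0.0585). In AP, Sgk1 (0.67, SE 0.114) and Klf9 (0.45, SE 0.112) were higher in VAT.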
